A study of Andropogon gerardi with 32 samples.

Results

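The 199 probes described here gave the brightest spots of a leaf microarray when big bluestem grew under ambient rainfall. They were chosen from 10447 probes by the ambient samples alone. A probe was ranked if it had a value above 0 in at least 14 of the 16 ambient samples, which 2539 probes had. Log2 intensities were ranked within each ambient sample, the median rank was taken, and the 200 highest were kept. Leaving out probes of the symbols Cab-m7, tua4 and hsp70-4 removed 1 probe, of Cab-m7. Intensity depends on the probe and its hybridisation as well as on the transcript, so the probes are called bright, and whether their transcripts were the most abundant was not tested.

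Big bluestem (Andropogon gerardii) is a perennial grass of the tallgrass prairie. Total RNA of leaves was measured in 32 samples, 16 under altered rainfall and 16 under ambient rainfall. The labels do not say how rainfall was altered, for how long, how old the plants were, or whether the samples of a group came from separate plants, so a p-value here measures only how these samples vary. Sample titles are numbered, with 1 altered and 1 ambient sample to a number, and the altered and ambient samples of a number lacked a value at the same spots for 16 of 16 numbers. Both samples of a number were therefore taken as the channels of 1 array. By the wording of their descriptions the samples form 3 sets, the first with 4 arrays (numbers 2 to 6), the second with 4 (7 to 10) and the third with 8 (11 to 19).

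In a green leaf, transcripts for light harvesting, for carbon fixation and for the protein synthesis machinery are known to be plentiful. PGR5, as known from Arabidopsis, acts in cyclic electron flow around photosystem I in the chloroplast. Of the 199 probes, 32 carried a gene symbol in the platform annotation, for 24 genes, and all but pgr5 had a symbol made of a locus number with no description. The other 167 are known by their probe number only. Symbols were therefore present on 16.1% of the bright probes, on 9.93% of the 2539 ranked probes and on 6.97% of all probes of the array. The leaf marker in the data was Cab-m7, a maize chlorophyll a/b-binding protein gene. Its probe 4707, the one left out by the rule, ran from 10.50 to 12.74 in altered samples (median 12.03) and from 12.09 to 13.67 in ambient samples (median 12.60), in normalized log2 intensity. A second Cab-m7 probe, 3766, was dim, with medians of 6.34 in altered and 6.42 in ambient samples over the 10 arrays that measured it. Probes that share a symbol can therefore differ widely in brightness.

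Arrays differed in how many spots had a value, from 1833 for number 7 to 9530 for number 2, with a median of 6300. The bright probes were nearly always present, with 192 to 199 of them measured in each sample. Median log2 intensities of the deposited samples ran from 4.25 to 8.62, so samples were quantile normalized and all levels below are normalized log2 intensities unless called deposited. On 14 of 16 arrays the largest deposited intensities of the altered and the ambient channel differed by less than 2%. The brightest spot was one of the 199 in 15 of the 16 altered channels and in 13 of the 16 ambient channels. How that near equality of the largest spots bears on the bright probes was not tested.

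The brightest probes under ambient rainfall were for the most part also the brightest under altered rainfall. Applied to the altered samples, the same rule ranked 2534 probes and gave a list of 198. It shared 156 probes with the 199, which is 78.4% of the ambient list (exact Clopper-Pearson 95% interval 72.0 to 83.9, counting error only) and 78.8% of the altered list. Altered samples had taken no part in choosing the 199. The median place of the 199 in the altered samples was 102 (quartiles 51.5 and 174.5, where place 1 is the brightest). Of the 199, 98 lay within the first 100 places, 58 between 101 and 200, 22 between 201 and 400, 12 between 401 and 1000, and 9 beyond 1000.

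**Figure D1:**
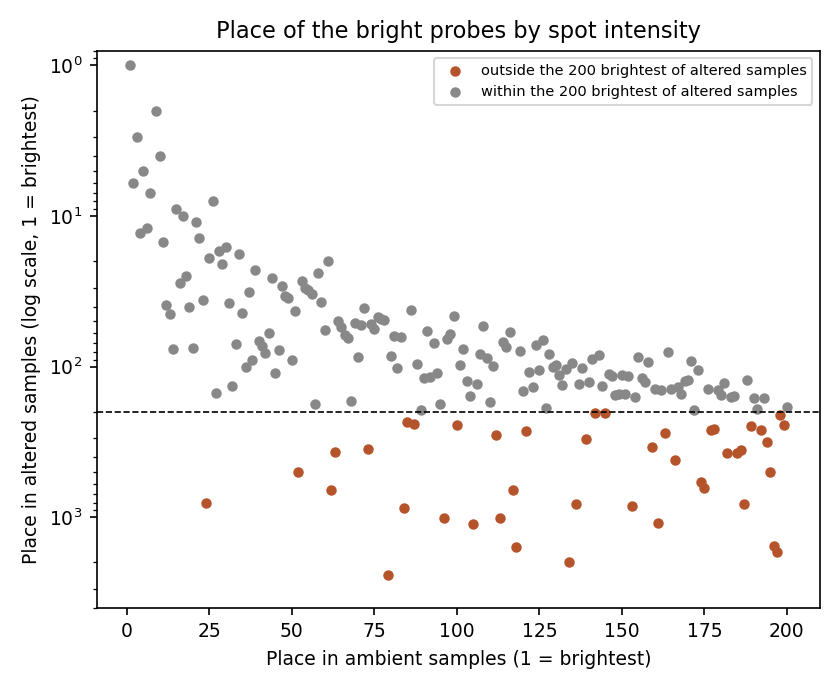
Each point is 1 of the 199 probes, with its place by median rank in ambient samples on the x axis and its place in altered samples on the y axis (log scale, 1 is the brightest; the dashed line is place 200). Most points follow a band, and the coloured points below the line are probes outside the 200 brightest of altered samples, the lowest at place 2405.

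The level to read that overlap against came from arrays not used for the choice. A list of 199 chosen in the ambient samples of numbers 2 to 10 shared 144 probes (72.4%) with the altered list of numbers 11 to 19. It shared 163 (81.9%) with the ambient list of those same arrays. A list chosen in the ambient samples of numbers 11 to 19 shared 151 probes (75.9%) with the altered list of numbers 2 to 10, and 163 (81.9%) with their ambient list. The altered lists of the 2 sets of arrays shared 166 probes (83.8% of one and 83.4% of the other). The lists were thus closer within a rainfall condition than between conditions, in both directions of the choice, and this was not tested.

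The brightest probe in ambient samples, 3786, was also the brightest in altered samples. Its deposited intensity ran from 879 to 27232 in altered samples (median 6505) and from 2320 to 48924 in ambient samples (median 7713). After normalization it averaged 12.48 ± 0.70 in altered and 12.97 ± 0.41 in ambient samples (SD, n = 16 each). The groups overlapped, and the altered sample was the lower on 12 of 16 arrays.

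The next 9 probes in ambient order were 7957, 3983, 2589, 3414, 9405, 11662, 653, 6313 and 5718, and all of them stayed within the first 15 places in altered samples. Probe 653 stood at place 2 in altered and place 9 in ambient samples, with 13.16 ± 0.69 in altered and 12.78 ± 0.92 in ambient samples, and was lower in the altered sample on 1 of 16 arrays. Probe 6313 stood at place 4 in altered and place 10 in ambient samples, with a difference of 0.51 ± 0.33 log2 units (SE). Probe 9405 stood at place 12 in altered and place 6 in ambient samples, with a difference of -0.87 ± 0.32. These differences are altered minus ambient over all arrays, and since ambient values chose the probes they are a description only.

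At the other end of the list, the last 5 probes kept were 10634, 57, 1663, 7161 and 11217, with median ambient ranks of 2256 to 2252 of the 2539. The first 5 left out were 8443, 9794, 2415, 9461 and 3181, at 2250 to 2248. The boundary therefore ran between probes of nearly equal rank. In altered samples 10634 stood at place 1555 and 57 at place 1703, whereas 8443 and 9461, just outside, stood at places 129 and 121. Leaving 1 ambient sample out of the choice kept between 191 and 195 of the 199.

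Over all 16 arrays, 32 of the 199 probes passed an adjusted p of 0.05 in limma (31 lower and 1 higher under altered rainfall), where 9.02% of the 6384 probes tested passed in either direction, 4.98% as lower and 4.04% as higher. Because this contrast includes the samples that chose the probes, nothing is read from that count. The array as a block gave 63 (49 lower and 14 higher, with 9.21% of all probes called) and within-array loess 75 (61 lower and 14 higher, with 8.52% of all probes called), so the split also moved with the setting. The median difference of the 199 was 0.06 (quartiles -0.91 and 0.34), beside 0.10 for all probes tested. A difference below -1 was seen in 43 of them (7.13% of all probes tested had one). A difference above 1 was seen in 3 (5.95% of all probes tested), namely 2152, 236 and 4651. Probe 10197, named after its values were seen, was the higher in the altered sample on 16 of 16 arrays, by 0.75 ± 0.29. It did not pass in numbers 2 to 10 (adjusted p = 0.444 in limma). Other bright probes, such as 11922 and 8812, were the lower on 16 of 16.

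Tests were made on arrays that had not chosen the probes. Of the 199 probes chosen in the ambient samples of numbers 2 to 10, 26 (13.1%) fell and 1 (0.503%) rose under altered rainfall in numbers 11 to 19. Among all 5793 probes tested there, 3.40% fell and 1.90% rose (5.30% in all). Among the 3471 tested probes that could be ranked in the ambient samples of numbers 2 to 10, 4.58% fell and 1.47% rose (6.05% in all). Before adjustment, 43 of the 199 (21.6%) passed a p of 0.05 in limma in either direction, beside 18.1% of all probes tested there. The list and all probes thus lay closer before adjustment than after it. Falls of the 26 were 2.56-fold to 18.4-fold. In leaf samples of mixed cells, fewer cells of a type and less RNA per cell cannot be told apart. The median difference of the list, -0.04 (quartiles -0.89 and 0.24), lay near that of all probes (0.03). Quantile normalization gives every sample the same distribution of levels, so this median cannot show whether the list fell as a whole. Differences below -1 made up 38 of the 199 (19.1%, against 10.6% of all probes tested) and differences above 1 made up 2 (1.01%, against 8.84%). The median SE of the list was 0.37 in numbers 11 to 19, beside 0.46 for all probes tested, and the part of this in the counts was not tested.

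**Figure D2:**
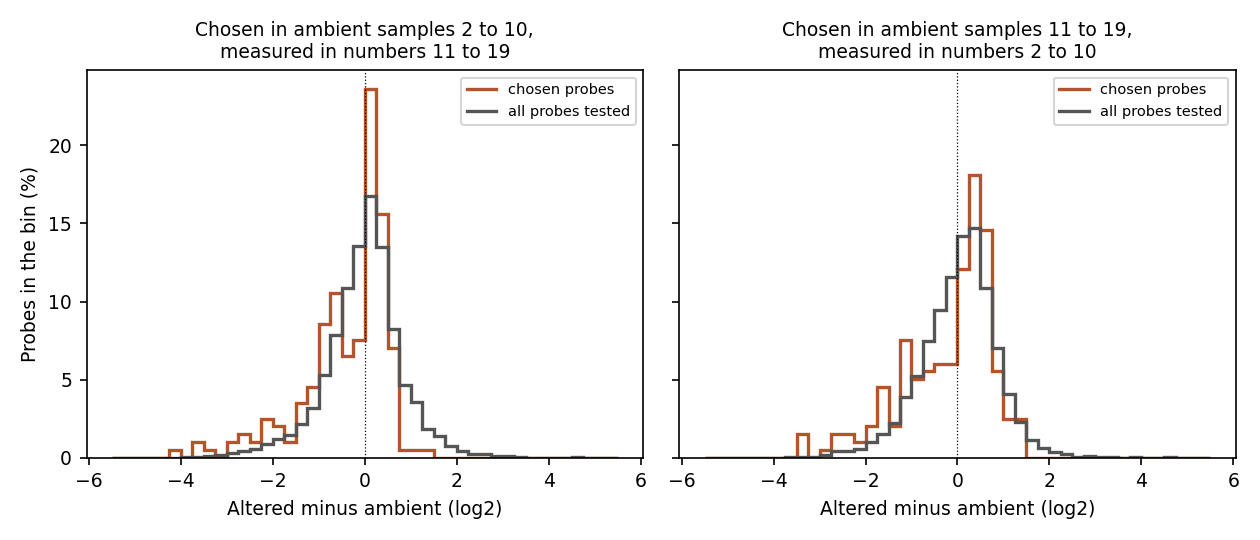
Histograms of the altered minus ambient difference (x axis, log2 units) as a percent of probes (y axis), for the probes chosen in the ambient samples of the other arrays and for all probes tested, in each set of arrays. In both sets the chosen probes have a heavier lower tail, with 19.1% below -1 in numbers 11 to 19 and 22.1% in numbers 2 to 10, while their medians lie within 0.1 of those of all probes.

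The reverse choice gave fewer calls in the same direction. Of the 199 probes chosen in the ambient samples of numbers 11 to 19, 7 (3.52%) fell and 0 rose in numbers 2 to 10. Of all 7641 probes tested there, 0.903% fell and 0.419% rose (1.32% in all), and of the 2734 that could be ranked in the ambient samples of numbers 11 to 19, 1.50% fell and 0.329% rose (1.83% in all). At an unadjusted p of 0.05, 31 of the 199 (15.6%) passed, near the 13.8% of all probes tested. The median SE of the list was 0.57 here, beside 0.52 for all probes tested. Differences below -1 made up 44 probes (22.1%, against 10.3% of all) and differences above 1 made up 10 (5.03%, against 9.07%). With the array as a block, 0 of the 7 calls remained (adjusted p 0.0752 to 0.108 in limma), and 0.0131% of all probes were called there.

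Lists chosen in altered samples were compared the same way, a comparison added after the data were seen. Of 198 probes chosen in the altered samples of numbers 2 to 10, 4 (2.02%) fell and 2 (1.01%) rose in numbers 11 to 19, where 3.40% of all probes fell and 1.90% rose. Of 199 chosen in the altered samples of numbers 11 to 19, 1 (0.503%) fell and 0 rose in numbers 2 to 10, where 0.903% of all probes fell and 0.419% rose. At an unadjusted p of 0.05, 15 of these 199 passed (7.54%, against 13.8% of all). Rises beyond 1 log2 unit made up 8 (4.04%, against 8.84% of all) in the first list and 17 (8.54%, against 9.07%) in the second. Falls beyond 1 made up 11 (5.56%, against 10.6%) and 21 (10.6%, against 10.3%). The shares of these lists thus lay near or below those of all probes tested, and no test was made between the lists.

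In the fits without the array as a block, the same 7 probes fell in both tests, and all of them belong to the 199. With the block, 0 probes of the lists were called in both sets of arrays. The 7 are therefore not a repeated result in the fit that pairs the channels. These 7 probes are 6935 (LOC542605), 8812, 356, 8259, 7025, 2141 and 11922. Of the 27 probes called in numbers 11 to 19, 20 were also in the list chosen in the ambient samples of numbers 11 to 19.

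**Figure D3:**
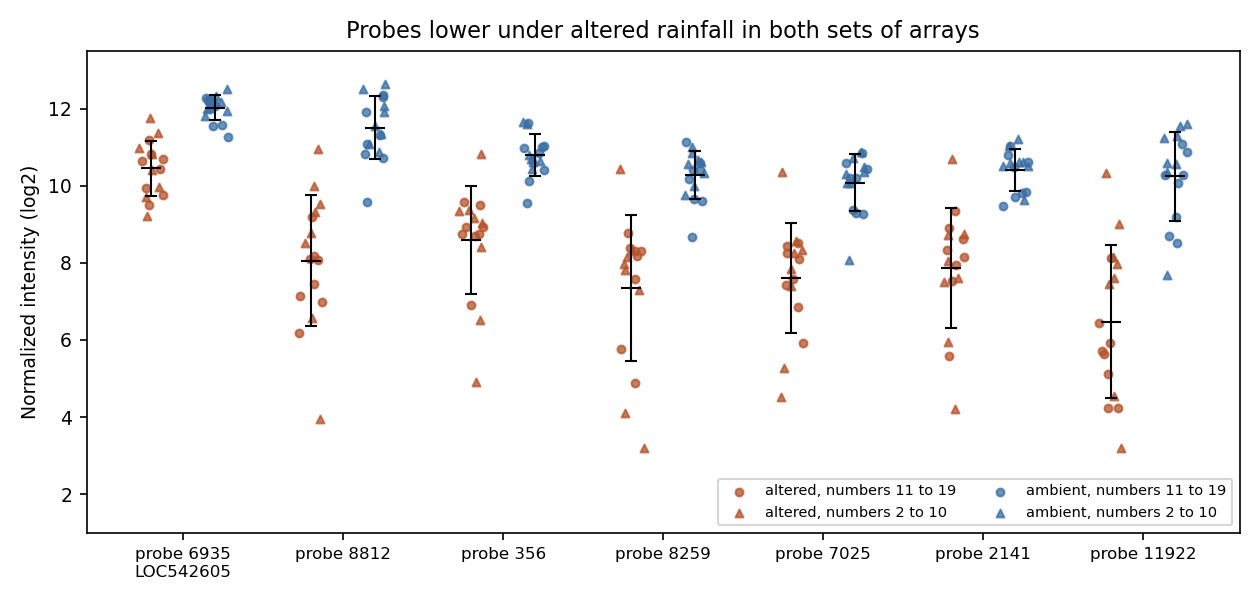
Normalized log2 intensity (y axis) of the 7 probes lower in both tests without the array as a block. Altered samples are left of ambient samples for each probe, with 1 point per sample. Circles are numbers 11 to 19, triangles are numbers 2 to 10, and bars are mean ± SD over 16 samples. The altered samples lie lower and spread more widely for each of the 7 probes.

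Probe 6935, annotated as LOC542605, was the brightest of the 199 with a gene symbol, at place 14 in ambient and place 77 in altered samples. In numbers 11 to 19 it ran from 9.50 to 11.19 in altered samples (median 10.53) and from 11.27 to 12.28 in ambient samples (median 12.12). The groups did not overlap, and the difference was -1.56 ± 0.32 (adjusted p = 0.00349 in limma), a 2.94-fold lower level. In numbers 2 to 10 it ran from 9.21 to 11.76 in altered samples (median 10.61) and from 11.82 to 12.50 in ambient samples (median 12.08). Here too the groups did not overlap, and the difference was -1.59 ± 0.37 (adjusted p = 0.0376). The second call was lost in 5 of the 6 settings that kept the list, among them the array as a block (adjusted p = 0.101), loess (0.124), median centring (0.0927), no normalization (0.654) and leaving out numbers 7 and 9, the arrays with few spots or weakly related channels.

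Probe 11922 moved farthest down the order, to place 2405 in altered samples, against place 79 in ambient samples. It ran in numbers 11 to 19 from 4.23 to 8.13 in altered samples (median 5.68) and from 8.51 to 11.09 in ambient samples (median 10.18). The groups did not overlap and the fall was 18.4-fold, a difference of -4.20 ± 0.50 (adjusted p = 1.67e-05). In numbers 2 to 10 the altered samples ran from 3.19 to 10.32 and the ambient samples from 7.68 to 11.61, with a difference of -3.33 ± 0.78 (adjusted p = 0.0376). Probe 11922 did not pass there with the array as a block (adjusted p = 0.0752 in limma) or with loess (0.124). The groups overlapped there, and the altered sample was the lower on 8 of 8 arrays.

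Probe 8812, at place 806 in altered and place 24 in ambient samples, had the next largest fall in numbers 11 to 19. Its values in numbers 11 to 19 ran from 6.19 to 9.20 in altered samples (median 7.77) and from 9.57 to 12.34 in ambient samples (median 11.19). The difference was -3.59 ± 0.44, a 12.0-fold fall with no overlap between groups (adjusted p = 1.96e-05). In numbers 2 to 10 it was -3.30 ± 0.69 (adjusted p = 0.0257). Probe 8812 did not pass there with the array as a block (adjusted p = 0.0752 in limma) or with loess (0.124).

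The remaining probes called in both sets without the block had smaller falls in numbers 11 to 19. Probe 8259 averaged 7.52 ± 1.41 in altered and 10.08 ± 0.75 in ambient samples of numbers 11 to 19 (SD, n = 8 each), and differed by -2.55 ± 0.50 there and by -3.30 ± 0.72 in numbers 2 to 10. Probe 7025 averaged 7.64 ± 0.90 in altered and 10.03 ± 0.63 in ambient samples of numbers 11 to 19, where the groups did not overlap. Probe 2141 differed by -2.17 ± 0.43 in numbers 11 to 19 and by -2.90 ± 0.62 in numbers 2 to 10. Probe 356 differed by -1.95 ± 0.38 in numbers 11 to 19 and by -2.45 ± 0.60 in numbers 2 to 10, where it differed by -1.60 and did not pass without numbers 7 and 9 (adjusted p = 0.109). In numbers 2 to 10 the altered sample was the lower on 7 of 8 arrays for 7025, 2141 and 356 and on 8 of 8 for 8259. None of these probes passed in numbers 2 to 10 with the array as a block (adjusted p 0.0752 to 0.108 in limma).

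Among the other falls in numbers 11 to 19, the largest were of probes 11699 (11.9-fold), 4398 (9.53-fold), 28 (7.00-fold), 7666 (6.86-fold), 10634 (6.18-fold) and 57 (5.93-fold). Probes 11699 and 4398 are not among the 199. Probe 28 averaged 7.05 ± 1.11 in altered and 9.86 ± 0.79 in ambient samples, and 7666 averaged 6.90 ± 1.03 in altered and 9.68 ± 0.65 in ambient samples (SD, n = 8 each). Of the 27 called probes, 24 were lower in the altered sample on each of the 8 arrays and 9 had groups that did not overlap. The calls came from those same arrays and no share over all probes was taken, so these counts are a description only. With the array as a block, 28 listed probes were called in numbers 11 to 19, all lower, where 3.33% of all probes were called. The list here is the 199 chosen in the ambient samples of the other arrays, and the 28 include 11699 and 4398.

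The 1 rise was of probe 2152, which ran from 10.18 to 13.67 in altered samples of numbers 11 to 19 (median 12.26) and from 9.93 to 11.82 in ambient samples (median 10.58). The groups overlapped, and the difference was 1.48 ± 0.44 (adjusted p = 0.0492 in limma). The call did not hold with median centring, without normalization, with loess, with the array as a block or without number 19, where the adjusted p lay between 0.0640 and 0.536.

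Probes with a gene symbol made up 4 of the 27 calls in numbers 11 to 19. Beside LOC542605 these were LOC542716 (4343), LOC542320 (10978) and LOC541791 (10316), all lower. Probe 4343 of LOC542716 ran from 5.84 to 8.77 in altered samples (median 7.64) and from 8.45 to 10.39 in ambient samples (median 9.90), a difference of -2.17 ± 0.42 (adjusted p = 0.00266). Probe 10978 of LOC542320 ran from 8.56 to 10.74 in altered samples (median 9.43) and from 10.40 to 11.96 in ambient samples (median 11.48), a difference of -1.68 ± 0.38 (adjusted p = 0.00801). Both pairs of groups overlapped. Probe 10316 of LOC541791 averaged 9.89 ± 0.43 in altered and 11.29 ± 0.54 in ambient samples and differed by -1.41 ± 0.31 (adjusted p = 0.00718, or 0.0565 without normalization).

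Genes with several probes allowed probes of the same symbol to be compared. The 24 genes had 47 probes in all, of which 15 were not bright, and 6 genes had several bright probes. The bright probes of LOC542212 (756, 2163 and 4812) differed by -1.30 ± 0.44, -1.36 ± 0.39 and -1.39 ± 0.42 over all arrays. In numbers 11 to 19 they differed by -0.89, -1.06 and -1.10 and did not pass (adjusted p 0.213, 0.184 and 0.0672). The 3 bright probes of LOC541664 (4297, 1018 and 8217) differed by 0.68 ± 0.27, 0.72 ± 0.29 and 0.49 ± 0.32 over all arrays. They stood at places 8, 16 and 47 in altered samples and at places 26, 30 and 76 in ambient samples. They did not pass in numbers 11 to 19 (adjusted p 0.351, 0.381 and 0.735 in limma) or in numbers 2 to 10 (0.458, 0.447 and 0.582). The bright probe of LOC541886, 10059, differed by 0.64 ± 0.29, and its 3 dimmer probes by 0.56, 0.82 and 0.64. Probe 10059 did not pass in numbers 11 to 19 (adjusted p = 0.333 in limma) or in numbers 2 to 10 (0.583). Here and below, differences over all arrays include the samples that chose the bright probes and are a description only.

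Dimmer probes of a gene did not always follow the bright one. For LOC542716 the dimmer probe 9183, which averaged 7.05 ± 1.61 in altered and 9.22 ± 0.94 in ambient samples, fell by 2.37 ± 0.48 in numbers 11 to 19 (adjusted p = 0.0031 in limma), much as 4343 did. For LOC542581 the bright probes 5780 and 1348 differed by 0.26 ± 0.30 and 0.33 ± 0.36 over all arrays. Its dim probe 4464, measured on 9 arrays, averaged 4.46 ± 1.27 in altered and 7.01 ± 0.56 in ambient samples (SD, n = 9 each). Without the array as a block it fell in numbers 11 to 19 (adjusted p = 0.0300 in limma) and in numbers 2 to 10 (0.0458). Its deposited intensities in altered samples were low, from 2 to 83.8. Over all arrays it differed by -2.55, or -1.68 with loess, and its calls were not examined under other settings. Another dim probe of the gene, 7950, measured on 7 arrays, differed by -2.34 ± 0.68 in numbers 11 to 19 and did not pass (adjusted p = 0.0591 in limma). For LOC542605 the dim probe 5773 fell by 1.57 ± 0.41 in numbers 11 to 19 (adjusted p = 0.0298) but not past the threshold in numbers 2 to 10, where it differed by -0.97 ± 0.77. Which probe of a gene reports the bluestem transcript was not tested.

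**Figure D4:**
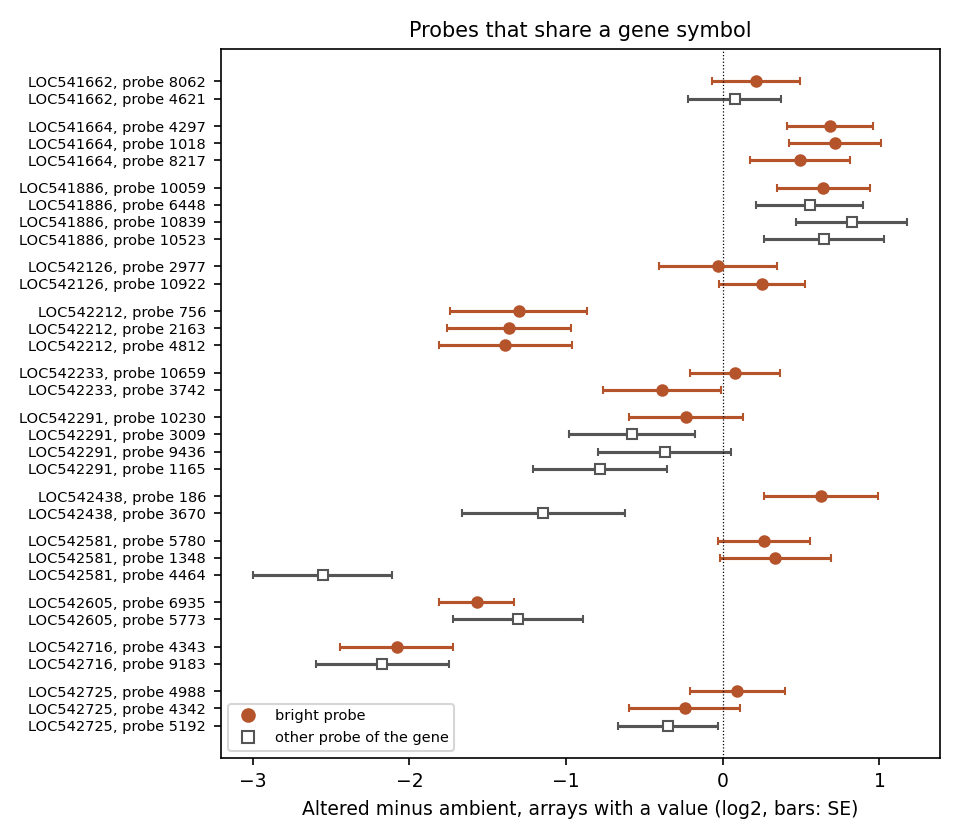
Altered minus ambient difference over all arrays (x axis, log2 units, point and SE) for probes that share a gene symbol with a bright probe, with bright and dimmer probes marked. Probes of LOC542212, LOC541664, LOC541886 and LOC542716 lie together within a gene. The dim probe 4464 of LOC542581, measured on 9 arrays, lies at -2.55 beside bright probes at 0.26 and 0.33. The dim probe 3670 of LOC542438, measured on 8 arrays, lies at -1.15 ± 0.52 beside a bright probe at 0.63. In numbers 2 to 10 probe 3670 differed by -0.04 ± 0.51.

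Of the other brightest probes with a locus symbol, 10659 (LOC542233) stood at place 11 in altered and place 21 in ambient samples and differed by 0.08 ± 0.29. The bright probes of LOC542126, 2977 and 10922, differed by -0.03 ± 0.38 and 0.25 ± 0.28. Probe 8366 (LOC542285) differed by 0.42 ± 0.27 and was lower in the altered sample on 2 of 16 arrays. The one bright probe with a described gene, 2855 for pgr5, stood at place 265 in altered and place 192 in ambient samples. It ran from 4.95 to 11.19 in altered samples (median 9.19) and from 8.11 to 11.60 in ambient samples (median 9.75). The groups overlapped, the altered sample was the lower on 13 of 16 arrays, and the difference in numbers 11 to 19 was -0.54 ± 0.41 (adjusted p = 0.557). No symbol of carbon fixation or protein turnover was matched on the array, and no symbol of the lists for translation, cytoskeleton, stress, lipids, chromatin or energy metabolism lay among the 199.

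The bright probes had a larger median SD over altered samples than over ambient samples. Their SD over altered samples ran from 0.49 to 2.25 with a median of 1.02, and their median SD over ambient samples was 0.87. All probes tested had a median SD of 0.87 in either group. Ambient values chose the bright probes by their median rank, so their spread there is not free of the choice and no test is given. The least variable under altered rainfall were 1856 (0.49), 6953 (0.53) and 4076 (0.59). Probe 6953 averaged 10.42 ± 0.53 in altered and 10.42 ± 0.74 in ambient samples. The most variable were 8049 (2.25), 9328 (2.15) and 10346 (2.12), and 8049 had deposited intensities from 24 to 4287 in altered samples and from 218 to 5197 in ambient samples.

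The bright probes took a smaller share of the summed deposited intensity under altered rainfall in most arrays. The sum was taken over the 2519 probes that could be ranked in both groups. Deposited intensities were not normalized here, and the channels of an array differed in median log2 intensity. For number 2 the medians were 8.46 in the altered and 5.93 in the ambient sample, and for number 14 they were 6.30 and 7.04. The part of such differences in the shares was not tested, and no share was taken for lists chosen in altered samples. In numbers 11 to 19, the list chosen in the ambient samples of the other arrays held 29.2% to 43.6% in altered samples (34.8% ± 4.31) and 39.7% to 45.2% in ambient samples (42.4% ± 1.88, SD, n = 8 each). Number 17 was the exception, at 43.6% in its altered and 41.5% in its ambient sample. In numbers 2 to 10, the list chosen in the other arrays held 27.7% to 42.2% in altered samples (34.5% ± 4.81) and 29.5% to 59.6% in ambient samples (44.0% ± 8.48), and the altered sample was the lower on 8 of 8 arrays. Number 7 held the highest and number 9 the lowest of these ambient shares. The number of the 199 among a sample's own 200 brightest ran from 76 to 162 in altered samples (median 136.5) and from 96 to 169 in ambient samples (median 158).

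**Figure D5:**
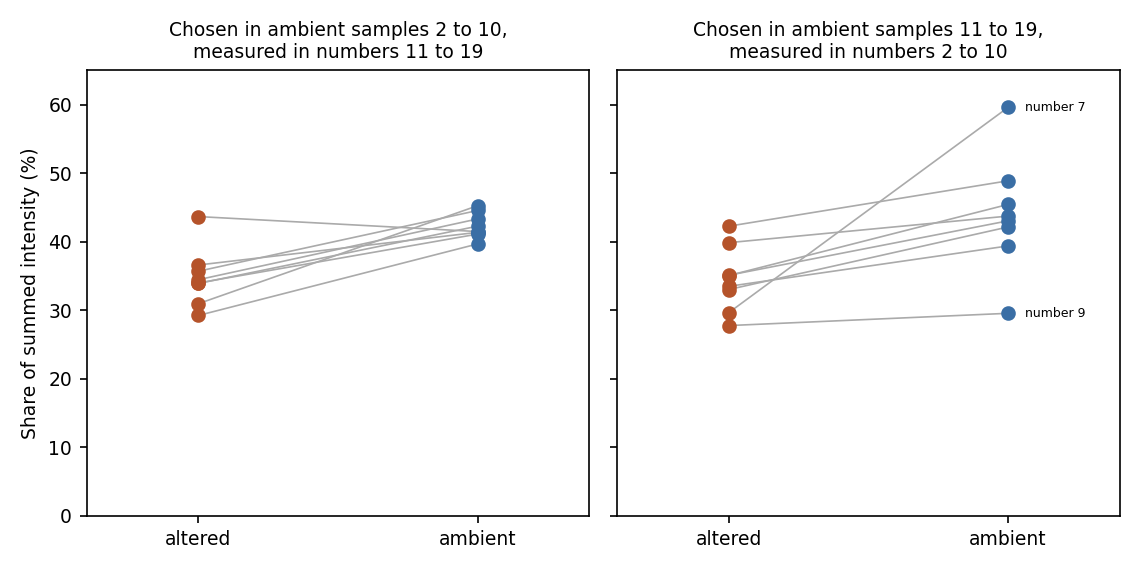
Share of the summed deposited intensity (y axis, percent) held by the probes chosen in the ambient samples of the other arrays, with altered samples left, ambient samples right and a line joining the samples of 1 array. In numbers 11 to 19 each line but that of number 17 rises to the ambient sample, while the ambient samples of numbers 2 to 10 spread from 29.5% to 59.6%.

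The altered minus ambient difference of the bright probes did not differ detectably between the 3 sets of arrays that share a wording of the description. In limma's moderated F-test of the interaction, 0 of the 199 passed after adjustment and 0 passed an unadjusted p of 0.05, where 0.0816% of the 6124 probes tested passed after adjustment and 7.23% before it. With the array as a block, 0 passed after adjustment and 1 (0.503%) before it. Of the 6124 probes tested with the block, 0 passed after adjustment and 5.75% before it. A lack of calls does not show that the sets were alike.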

How the data were processed

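The deposited file holds spot intensities on a linear scale, 1 column per sample. How the authors made the intensity values (dyes, scanner, background, scaling) is not stated in the labels or the file. The altered channel held values that were not whole numbers on 11 arrays and the ambient channel on 4. Values at 0 (1509 of 194148, 0.777%) were set missing, the rest taken as log2 and quantile normalized between the 32 samples. Altered was compared with ambient in limma 3.58.1 (R 4.3.3, lmFit and eBayes, two-sided, Benjamini-Hochberg over all probes tested, threshold 0.05), for probes measured in 8 or more samples in both groups, or in 4 or more within numbers 2 to 10 or 11 to 19. For choices within those sets a probe needed a value in 7 of 8 ambient samples. Differences are altered minus ambient in log2 units ± SE. The number of arrays limits the precision, and no depth or background flag is given. The scripts were tested on simulated data.

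The members and lists were chosen with earlier results of these data known. Probes named are the 10 brightest, the 5 on either side of the boundary, members with a described gene, the 12 brightest with a locus number, the largest calls on arrays not used for the choice and calls with a symbol, the least and most variable, other probes of the same genes, and at most 3 probes from any gene list. Probes 236, 4651 and 10197 were named after their values were seen. Gene symbols come from the platform annotation. Alternatives were other normalizations, the array as a block, filters, list sizes and leaving out arrays.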

Additional observations from a re-analysis of the deposited data

How the results depend on the processing

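Over all arrays, the count of bright probes called moved from 32 to 63 with the array as a block (9.21% of all probes tested) and to 75 with within-array loess (8.52%), while the 8 other settings gave 22 to 48. In numbers 11 to 19 the count of 27 changed to 13 and 52 when 100 or 400 probes were kept, in the fit that called 5.30% of all probes. It lay between 20 and 32 under the other settings of normalization, block, number 19 left out and normalization within those arrays (the last chosen after seeing the data). The share of all probes called there moved too, to 3.33% with the block. Counts in this section without that share beside them are a description only. Of the 27 calls, 19 were kept in the 6 settings that kept the list. Without normalization the falls of 755, 2619, 3387, 7594, 8480 and 10316 did not pass, nor did that of 1056 with loess. In numbers 2 to 10 the count of 7 changed to 1 with median centring, to 0 without normalization and to 0 with loess. It was 0 with the replicate block (0.0131% of all probes called) and 16 when 400 probes were kept (1.32% of all probes called). It was 6 without numbers 7 and 9, and 7 when normalized within those arrays. With loess the adjusted p of the 7 was 0.124 and no probe of the array was called there. The cause was not tested. The block result in numbers 11 to 19 was 28 calls, all lower, 26 of them among the 27. Without normalization the median difference of all probes over all arrays was 0.57, against 0.10, so differences there are relative to that shift. The overlap with the altered list stayed between 77.4% and 81.4% under the settings run. The interaction called 0 bright probes with the block and with median centring too, where 0 and 3 of the 6124 probes tested were called. Deviations of same-numbered samples from their group means correlated between -0.14 and 0.75 over the bright probes (above 0.1 for 14 of 16 numbers), between -0.12 and 0.73 over the 894 probes with a value in all samples (14 of 16), and between -0.25 and 0.36 over all probes tested (2 of 16). The correlations were not above 0.1 for every number, and the fit without the block was kept as the main one. Shared missing spots tie both samples of a number to 1 array, so that fit leaves a pairing out. Groups of 16 samples were not screened for single outlying samples.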
